A study of Mus musculus with 2 samples.

Results

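The genes examined here encode the machinery of the cell cycle: cyclins and cyclin-dependent kinases (CDKs), CDK inhibitors, replication licensing factors, E2F factors with their pocket proteins, centromere and kinetochore proteins, and the Aurora, Polo-like and NEK kinases. They were selected by gene symbol, not by level, from probe sets annotated to a single gene. Of 140 mouse gene symbols that fit, 98 had a value in the table, out of 13869 named genes, and were represented by 171 probe sets. Each gene was given the value of its brightest probe set in the table. The symbols also bring in genes that act outside the cycle, such as Cdc37, which encodes an HSP90 co-chaperone.

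Luminal cells were sorted by flow cytometry from the pooled mammary epithelium of 3 adult virgin mice that carried a Venus knock-in on one Tbx3 allele (Tbx3+/Venus, FVB background, aged 5 months). Both populations, luminal VenusHigh and luminal VenusLow, therefore came from the same animals and were heterozygous for Tbx3, because the insertion stops Tbx3 expression from that allele. From 200000 cells of each population, 1 array was hybridized (an Affymetrix GeneChip of the mouse genome). With 1 array per population there is no replicate spread and no test, and each comparison below describes these arrays. The number of arrays limits the precision. Values are log2 signals with a floor at a signal of 10, which is 3.32 on the log2 scale. In RNA from sorted populations, fewer cells of a type and less RNA per cell cannot be told apart.

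A division cycle begins when D-type cyclins with Cdk4 and Cdk6, followed by cyclin E with Cdk2, phosphorylate the retinoblastoma family and free E2F factors. E2F factors then switch on genes for DNA synthesis, and a later wave of genes, controlled through CHR promoter elements and neighbouring CCAAT boxes, provides cyclin B, Cdk1, and the kinetochore and spindle proteins needed for mitosis. In the adult virgin mammary gland few luminal cells divide at a time, and those that do are mostly negative for the estrogen receptor.

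The value table sets what can be seen. Of 29338 probe sets, 12968 were higher in VenusHigh cells, 16370 had the floor value on both arrays, and 0 were lower in VenusHigh cells. The remaining 42 of the 140 genes, among them Mki67, Pcna, Ccnb1, Ccnd1, Rb1, Rbl2, E2f1, Mcm4 and Mcm7, are not analysed here, and no gene below can appear as lower. Genes with a value may also have other probe sets outside the table. A gene given below as at the floor is so on its probe sets in the table, which does not show that it was silent. Tbx3, whose reporter was used for sorting, had a log2 signal of 8.72 in VenusHigh cells and 3.62 in VenusLow cells. Of 14 luminal markers, 7 had a value and 6 reached a signal of 100, with a median log2 difference of 0.61 and a summed linear signal over the 7 of 37320 in VenusHigh cells and 22947 in VenusLow cells. Their log2 differences lay between 0.09 for the keratin gene Krt8, with 13.22 in VenusHigh and 13.13 in VenusLow cells, and 3.70 for another keratin gene, Krt7, with 12.50 in VenusHigh and 8.80 in VenusLow cells. Of 12 markers of hormone-sensing cells, 9 had a value and 8 reached a signal of 100, while Tnfsf11 lay at the floor on both arrays. All 8 differed by 4-fold or more towards VenusHigh cells, beside 8.58% of all 3847 genes with this signal. Tbx3 is among the 8, and its difference follows from the sort. With the floor raised to a signal of 100, Msx2 fell to a log2 difference of 1.37, below 4-fold. Of 12 immune and 11 basal cell markers, 8 and 7 had a value, and all of these lay at the floor on both arrays. Marker probe sets higher in VenusLow cells could not appear, whatever their signal in VenusHigh cells, so these values do not measure the purity of either population. The 11 alveolar markers are not analysed here. Of 12 stromal and endothelial markers, 10 had a value, with a summed linear signal of 307 in VenusHigh cells and 132 in VenusLow cells, and 5 lay at the floor on both arrays. The 1 that reached a signal of 100 was Vwf, an endothelial gene, with 7.26 in VenusHigh cells and 4.31 in VenusLow cells. The part of these marker differences in the results below was not tested.

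Of the 98 cell cycle genes, 40 reached a signal of 100 on an array, 34 were above the floor without reaching it, and 24 had the floor value on both. Among the 40, 8 genes (20.0%) were at least 2-fold higher in VenusHigh cells, beside 21.6% of all 3847 genes that reached this signal. At least 4-fold higher were 4 genes (10%), beside 8.58% of all genes. As no value is lower in VenusHigh cells, the VenusHigh array alone decided whether a gene reached the signal. Among the genes at least 2-fold higher, Cdk18, Cenpl, Cdkn2d and Cdk1 were below a signal of 100 in VenusLow cells. The median log2 difference (VenusHigh minus VenusLow) was 0.41 for the 40 genes and 0.46 for all genes, and the middle 50% of genes lay between 0.28 and 0.72 in the list and between 0.21 and 0.91 in the whole table. The cell cycle genes, taken as a list, thus had shares and a median near those of the whole table. Both medians lie above 0 because the table holds no lower values. Probe sets of the same gene differed in their log2 difference with a pooled SD of 0.31 over 1062 genes, and 16 of the 40 genes differed between the populations by less than this. As negative differences are not in the table, this SD may be too small as a measure of spread.

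**Figure D1:**
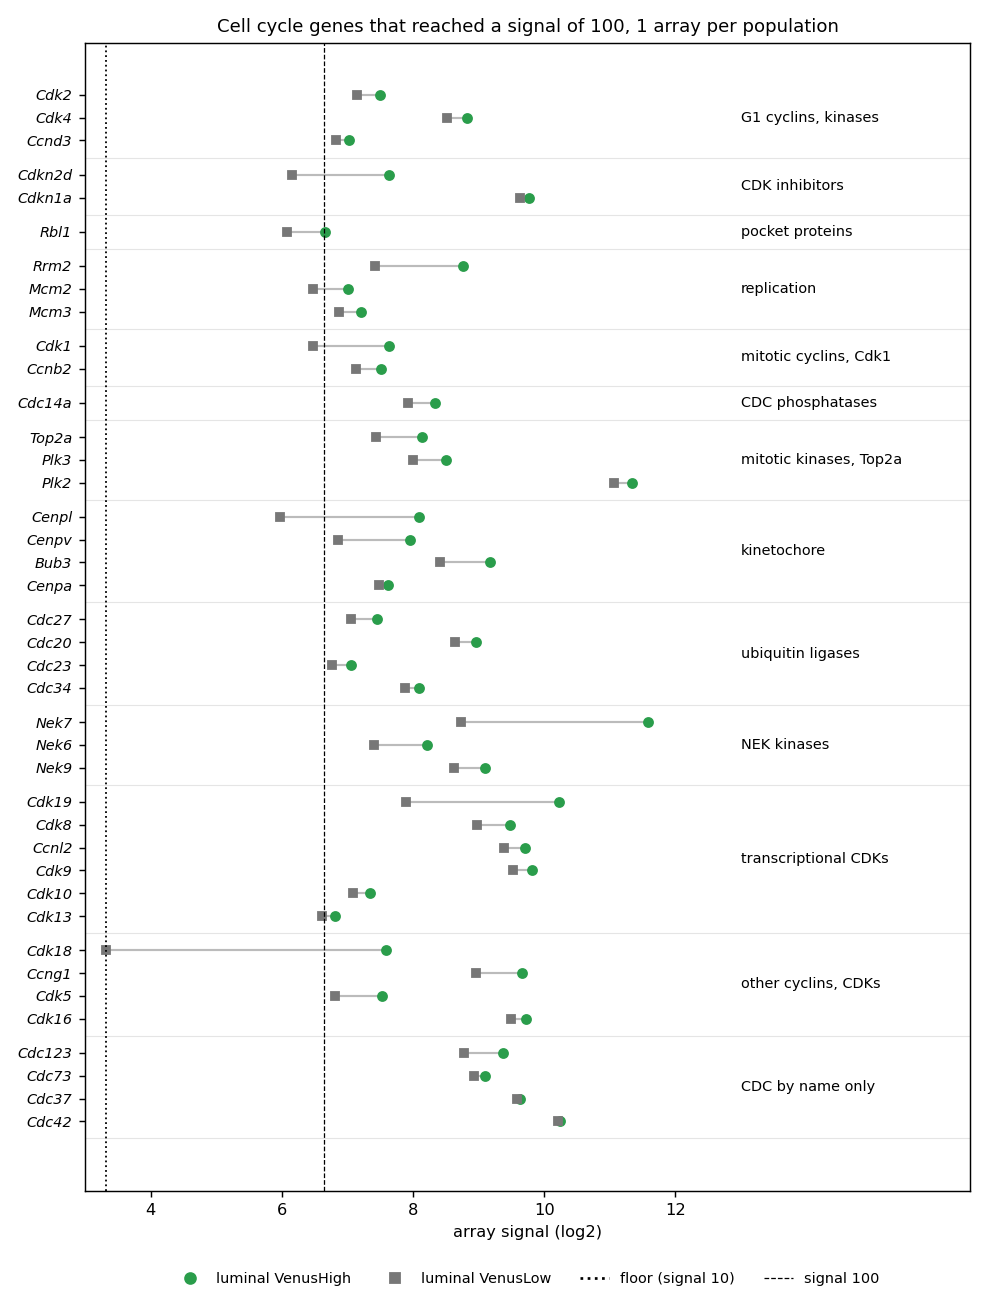
Log2 array signal (horizontal axis) of the 40 cell cycle genes that reached a signal of 100, by role, in luminal VenusHigh cells (green circles) and luminal VenusLow cells (grey squares), 1 array each. The dotted line is the floor and the dashed line a signal of 100. Cdk18, Nek7, Cdk19 and Cenpl have the widest gaps, and for most other genes the symbols lie within 1 log2 unit.

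**Figure D2:**
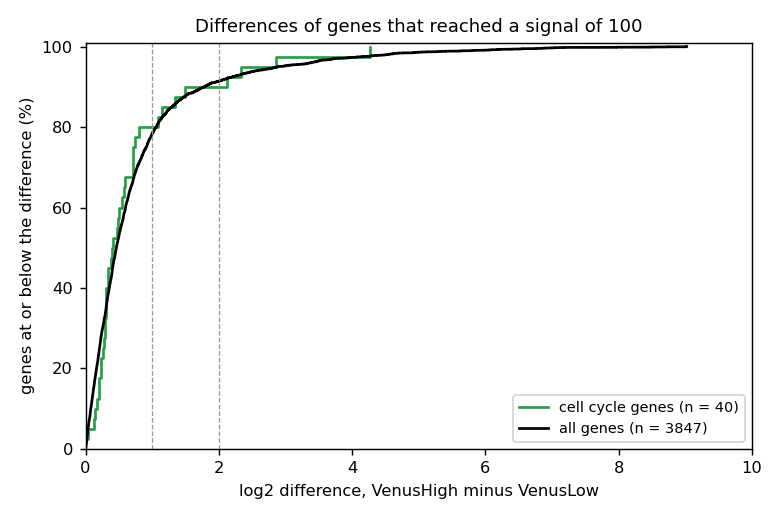
Percentage of genes (vertical axis) at or below each log2 difference, VenusHigh minus VenusLow (horizontal axis), for the 40 cell cycle genes (green) and all 3847 genes (black) that reached a signal of 100. Dashed lines mark 2-fold and 4-fold differences. The lines run close together, with 20.0% of the cell cycle genes and 21.6% of all genes at 2-fold or more.

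The genes at least 4-fold higher were Cdk18, Nek7, Cdk19 and Cenpl. Nek7, which encodes a NIMA-related kinase that helps to form the mitotic spindle and is also required for activation of the NLRP3 inflammasome in mice, had a log2 signal of 11.59 in VenusHigh cells and 8.73 in VenusLow cells, a 7.28-fold difference. Another Nek7 probe set had 11.52 in VenusHigh and 8.60 in VenusLow cells, and the third had 7.30 in VenusHigh and 4.98 in VenusLow cells. All 3 reached a signal of 100 in VenusHigh cells, and their log2 differences lay between 2.31 and 2.92. Cdk19, a kinase of the Mediator complex that regulates transcription with cyclin C, had 10.22 in VenusHigh cells and 7.89 in VenusLow cells, a 5.03-fold difference. On its other probe set it had 9.45 in VenusHigh and 6.90 in VenusLow cells, a 5.87-fold difference. Nek7 and Cdk19 were therefore at least 4-fold higher on every probe set in the table.

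Cdk18 and Cenpl each rested on 1 probe set. Cdk18, a kinase of the PCTAIRE group, had 7.59 in VenusHigh cells and lay at the floor in VenusLow cells, a difference of at least 19.2-fold. With the floor raised to a signal of 100 its log2 difference was 0.94, which ends both calls. Cenpl, a subunit of the constitutive centromere-associated network that links centromeric chromatin to the kinetochore, had 8.10 in VenusHigh cells and 5.97 in VenusLow cells. This is a 4.36-fold difference, or 2.13 on the log2 scale, and 1.45 when the floor is raised to 100. After median centring Cdk19 and Cenpl were below 4-fold, with log2 differences of 1.67 and 1.47. Of these 4 genes, Cenpl is the kinetochore gene, Nek7 also acts outside mitosis, and Cdk19 is known as a regulator of transcription.

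**Figure D3:**
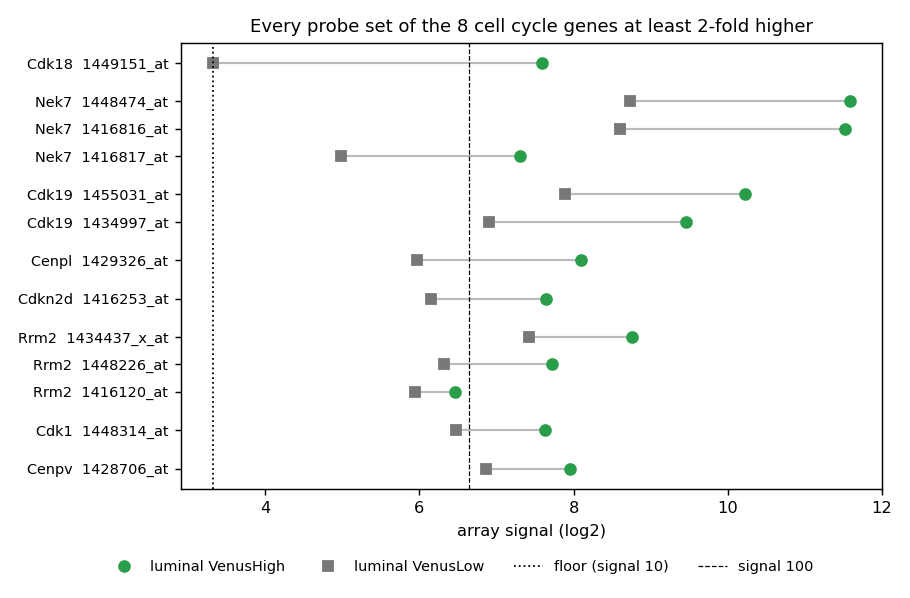
Log2 array signal (horizontal axis) of every probe set in the table for the 8 cell cycle genes at least 2-fold higher, in luminal VenusHigh cells (green circles) and luminal VenusLow cells (grey squares). The dotted line is the floor and the dashed line a signal of 100. The 3 probe sets of Nek7 and both of Cdk19 have wide gaps, the gap of Cdk18 reaches the floor, and the dimmest probe set of Rrm2 has a narrow gap.

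The other genes at least 2-fold higher were Cdkn2d, Rrm2, Cdk1 and Cenpv. After median centring of the arrays their log2 differences were 0.83, 0.68, 0.49 and 0.43, in that order. After quantile normalization they were 0.79, 0.69, 0.45 and 0.43, and none of the 4 was counted under either rescaling. Both rescalings rest on a table without lower values and may lower the differences too far. Whether these 4 calls depend on the scaling can therefore not be told. With the floor at 100 Cdk1 and Cdkn2d fell just below the 2-fold threshold, with log2 differences of 0.988 and 0.996. Cdk1, the kinase that drives entry into mitosis, had a log2 signal of 7.63 in VenusHigh cells and 6.48 in VenusLow cells, a 2.22-fold difference on 1 probe set. Rrm2, the regulatory subunit of ribonucleotide reductase that supplies deoxynucleotides in S phase, had 8.76 in VenusHigh cells and 7.42 in VenusLow cells, a 2.54-fold difference. This probe set carries the suffix of those that can bind related transcripts. A Rrm2 probe set without the suffix had 7.72 in VenusHigh and 6.32 in VenusLow cells, a 2.64-fold difference, and the dimmest had 6.46 in VenusHigh and 5.94 in VenusLow cells, below a signal of 100 on both arrays. Cenpv, which encodes a protein of centromeric chromatin and the spindle midzone, had 7.96 in VenusHigh cells and 6.86 in VenusLow cells, 2.13-fold apart and just inside the 2-fold threshold. Just outside it was Nek6, a relative of Nek7, with 8.21 in VenusHigh and 7.41 in VenusLow cells, and a log2 difference of 0.81. Another Nek6 probe set differed by 1.01.

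The promoters of the genes at least 2-fold higher that act in DNA synthesis, in mitosis or at the kinetochore are shown for the elements through which such genes are known to be timed in the cycle. The stretches are the 250 bases before the transcription start in RefSeq (GRCm38.p6), read on the strand of the gene: Cdk1 at chr10:69352913-69353162, minus strand; Cenpl at chr1:161070517-161070766, plus strand; Rrm2 at chr12:24708004-24708253, plus strand; Cenpv at chr11:62539262-62539511, minus strand; Nek7 at chr1:138619758-138620007, minus strand. Capitals mark matches, on either strand, to TTTGAA (the CHR element), to CCAAT (the CCAAT box) and to 4 forms of the E2F site, which are TTGGCGC with its variants TTCCCGC as well as TTCGCGC besides TTGCCGC, and 0 matches of different motifs overlapped in these stretches.
Cdk1: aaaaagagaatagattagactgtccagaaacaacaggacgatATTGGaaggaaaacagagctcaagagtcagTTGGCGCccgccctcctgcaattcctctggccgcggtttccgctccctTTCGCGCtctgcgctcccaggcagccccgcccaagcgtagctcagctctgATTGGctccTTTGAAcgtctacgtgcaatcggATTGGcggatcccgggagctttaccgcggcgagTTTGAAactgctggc
Cenpl: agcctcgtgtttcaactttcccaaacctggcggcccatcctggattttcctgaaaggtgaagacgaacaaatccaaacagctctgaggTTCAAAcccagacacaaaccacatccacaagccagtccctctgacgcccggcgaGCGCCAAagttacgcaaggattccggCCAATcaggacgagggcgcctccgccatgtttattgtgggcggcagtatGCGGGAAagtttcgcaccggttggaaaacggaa
Rrm2: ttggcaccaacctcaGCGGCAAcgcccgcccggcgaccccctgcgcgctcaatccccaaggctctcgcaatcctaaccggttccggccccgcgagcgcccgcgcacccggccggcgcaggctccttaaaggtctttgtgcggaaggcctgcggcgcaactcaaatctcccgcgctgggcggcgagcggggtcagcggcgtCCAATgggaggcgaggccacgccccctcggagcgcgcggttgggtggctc
Cenpv: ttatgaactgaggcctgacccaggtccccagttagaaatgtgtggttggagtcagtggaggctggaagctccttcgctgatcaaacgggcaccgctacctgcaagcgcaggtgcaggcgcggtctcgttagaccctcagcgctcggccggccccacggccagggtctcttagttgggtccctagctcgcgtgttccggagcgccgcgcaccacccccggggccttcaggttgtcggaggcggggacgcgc
Nek7: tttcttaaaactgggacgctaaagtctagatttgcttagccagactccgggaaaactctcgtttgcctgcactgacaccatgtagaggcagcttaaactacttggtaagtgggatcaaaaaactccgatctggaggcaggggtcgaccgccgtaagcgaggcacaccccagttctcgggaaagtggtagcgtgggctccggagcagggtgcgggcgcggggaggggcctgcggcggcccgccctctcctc

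Cdk1 held matches to CHR at 71 and 15 bases before the start and to the E2F forms at 178 and 130. Its CCAAT matches lay at 208, 80 and 48. Cenpl held a CHR match at 162 bases, E2F matches at 108 and 33, and a CCAAT match at 82. Rrm2 held an E2F match at 235 and a CCAAT match at 50. Cenpv and Nek7 each held 0 matches, which says only that these letters are not in the stretch. Of the 8 genes, 7 had a promoter sequence, and of these 2 held CHR, 5 CCAAT and 3 an E2F form. Of the 40 genes that reached a signal of 100, 37 had a promoter sequence. Of all 3847 genes that reached this signal, 3172 had one. A gene was counted if any of its promoters held the motif. CHR was present in 24.3% of the 37 and in 12.2% of the 3172, CCAAT in 62.2% and 41.5%, and an E2F form in 18.9% and 17.0%. In stretches of the same length from all 32851 RefSeq promoters the shares were 16.0%, 33.8% and 7.89%. These were counted per promoter, not per gene, so they are not the same measure. A match is a stretch of letters, not a bound site.

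Of 8 genes for G1 cyclins and their kinases, which start the cycle, 5 had a value, 3 reached a signal of 100 and 0 were counted as 2-fold higher, beside 21.6% of all genes. With 3 genes this gives no result for the group, and Ccnd1, Cdk6 and Ccne2 are not analysed here. Cdk4, the partner of D-type cyclins, had a log2 signal of 8.82 in VenusHigh cells and 8.52 in VenusLow cells, and its 3 probe sets differed by 0.30 to 0.71. Cdk2 had 7.50 in VenusHigh cells and 7.15 in VenusLow cells, and the cyclin gene Ccnd3 had 7.03 in VenusHigh and 6.83 in VenusLow cells. Ccnd2, another D-type cyclin gene, was at the floor on both arrays. Ccne1, which encodes cyclin E1, stayed below a signal of 100, with 4.72 in VenusHigh and 3.98 in VenusLow cells.

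Among genes that hold the cycle back, Cdkn2d, an INK4 inhibitor of Cdk4 and Cdk6, had 7.64 in VenusHigh cells and 6.15 in VenusLow cells. Of 7 CDK inhibitor genes 5 had a value and 2 reached a signal of 100, of which Cdkn2d was counted as 2-fold higher, beside 21.6% of all genes. Its log2 difference was 1.49, while that of Cdkn1a, the gene of a broad CDK inhibitor induced by p53, was 0.14. Of the pocket proteins and E2F factors, 4 of 11 had a value and Rbl1, a repressive partner of E2F factors, reached a signal of 100 by a narrow margin, with 6.66 in VenusHigh cells and 6.08 in VenusLow cells. E2f2 had 4.81 in VenusHigh cells and the floor in VenusLow cells, and E2f8 was at the floor on both arrays.

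Of 15 genes for DNA replication, 10 had a value, 3 reached a signal of 100 and 5 had no probe set in the table above the floor. Mcm2, a subunit of the replicative helicase, had 7.02 in VenusHigh and 6.47 in VenusLow cells. Mcm3, another subunit, had 7.21 in VenusHigh and 6.88 in VenusLow cells. Their log2 differences of 0.54 and 0.34 lay below the 1.34 of Rrm2. The loading factor gene Cdc6 had 5.06 in VenusHigh and 4.55 in VenusLow cells. Cdc45, a helicase cofactor, had 5.34 in VenusHigh and 5.05 in VenusLow cells. Mcm5, Mcm6 and Rrm1 were at the floor, each on the 1 probe set in the table, so whether they were expressed cannot be told.

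Of 7 genes for mitotic and S-phase cyclins and Cdk1, 6 had a value, 2 reached a signal of 100 and 2, Ccna1 and Ccnb3, were at the floor on both arrays. The B-type cyclin gene Ccnb2 had 7.52 in VenusHigh cells and 7.13 in VenusLow cells. Top2a, a topoisomerase used as a marker of dividing cells, had 8.14 in VenusHigh and 7.43 in VenusLow cells, a 1.64-fold difference. Cdc20, which activates the anaphase-promoting complex, had 8.96 in VenusHigh and 8.65 in VenusLow cells on its brightest probe set. Several other mitotic genes were below a signal of 100 on both arrays. Aurka, a spindle pole kinase, had 5.89 in VenusHigh cells and 4.47 in VenusLow cells. Plk1, a Polo-like kinase needed throughout mitosis, had 5.35 in VenusHigh and 4.08 in VenusLow cells. Ccnf, which encodes a cyclin that serves in a ubiquitin ligase, had 5.43 in VenusHigh and 4.01 in VenusLow cells. These 3, with Cenps, E2f2 and Nek8, were the 6 genes below a signal of 100 whose difference was at least 2-fold, and they were not counted. Ccna2, the cyclin of S phase and G2, had 6.32 in VenusHigh and 6.09 in VenusLow cells. Plk2, a stress-responsive relative of Plk1, had 11.34 in VenusHigh and 11.06 in VenusLow cells. Plk3, also induced by stress, had 8.50 in VenusHigh and 8.01 in VenusLow cells.

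The centromere and kinetochore group was the largest, with 20 of 23 genes in the table, of which 4 reached a signal of 100 and 13 were above the floor without reaching it. Besides Cenpl and Cenpv these were Cenpa, the histone H3 variant that marks the centromere, with 7.62 in VenusHigh cells and 7.49 in VenusLow cells, and Bub3, a spindle checkpoint protein, with 9.17 in VenusHigh and 8.42 in VenusLow cells. Subunits of the same centromere network differed by unequal amounts. Cenps had 6.47 in VenusHigh cells and 4.96 in VenusLow cells. Cenpn, the direct partner of Cenpl, had 6.36 in VenusHigh and 6.01 in VenusLow cells. The checkpoint genes Bub1 and Bub1b had log2 differences of 0.02 and 0.23. Of the 4 ubiquitin ligase genes that reached a signal of 100, 0 were counted as 2-fold higher, beside 21.6% of all genes, and their differences lay between 0.23 and 0.40.

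Within families, the differences of related genes were unequal. In the NEK family, Nek7 differed by 2.86, Nek6 by 0.81 and Nek9, which activates both of them in mitosis, by 0.47. Of the Mediator kinases, Cdk19 differed by 2.33 and its paralog Cdk8 by 0.51, with 9.49 in VenusHigh cells and 8.98 in VenusLow cells. Their shared cyclin gene, Ccnc, had 5.82 in VenusHigh and 5.78 in VenusLow cells on the brightest of its 4 probe sets. Among the PCTAIRE kinases, Cdk16 had 9.73 in VenusHigh cells and 9.49 in VenusLow cells, against at least 4.27 log2 units for Cdk18. The elongation kinase gene Cdk9 had 9.82 in VenusHigh and 9.53 in VenusLow cells. The cyclin genes Ccnl2 and Ccng1 had differences of 0.31 and 0.71. Whether the differences of such relatives differ from each other was not tested, since each population has 1 array.

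Of the genes that share only a CDC symbol, Cdc42 had 10.24 in VenusHigh cells and 10.22 in VenusLow cells. Cdc37 had 9.63 in VenusHigh and 9.59 in VenusLow cells. Cdc73, a subunit of the PAF1 transcription complex, had 9.10 in VenusHigh and 8.94 in VenusLow cells. These 3 differences, of 0.02, 0.03 and 0.17, were smaller than the SD between probe sets.

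Further cell cycle genes, not selected by the symbol rule, were taken from lists of S-phase genes, mitosis genes, E2F and DREAM complex partners and subunits of the anaphase-promoting complex. Of 97 genes, 63 had a value, 19 reached a signal of 100, and the 2-fold threshold was passed by 0 of these, beside 21.6% of all genes. Their median log2 difference was 0.22. The mitosis genes accounted for 9 of the 19. The brightest of them in VenusHigh cells were Cks2, Pttg1 and Ube2c, with log2 differences of 0.10, 0.13 and 0.61. Anln, which encodes the cytokinesis protein anillin, had 8.19 in VenusHigh cells and 7.24 in VenusLow cells. Mad2l1, a checkpoint gene, had 8.20 in VenusHigh and 7.40 in VenusLow cells. Birc5, of the chromosomal passenger complex, had 7.45 in VenusHigh and 7.16 in VenusLow cells. Gmnn, the inhibitor of origin licensing, had 7.54 in VenusHigh and 7.50 in VenusLow cells. Dnmt1, the maintenance DNA methyltransferase, had 9.46 in VenusHigh and 9.26 in VenusLow cells. Rbbp4, a chromatin subunit shared by the DREAM complex, had 11.38 in VenusHigh and 10.93 in VenusLow cells.

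The scaling of the arrays is not known, which limits the small differences. Over probe sets that reached a signal of 100, the VenusHigh array had a median of 8.21 and the VenusLow array 7.55. Because the table holds no lower values, the VenusHigh median had to be the higher one. The gap therefore does not measure the scaling, and removing it may lower the differences too far. Centring both arrays on these medians lowers every difference by 0.66, after which 27 of the 40 genes are negative and have no settled direction. The 8 genes at least 2-fold higher stay above 0, and Nek7, Cdk19, Cdk18 and Cenpl stay at least 2-fold higher. Since every difference falls by the same amount, both outcomes were fixed by the calling thresholds and are no check of these genes. The share at least 2-fold higher is then 10% for the cell cycle genes and 10.9% for all genes.

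**Figure D4:**
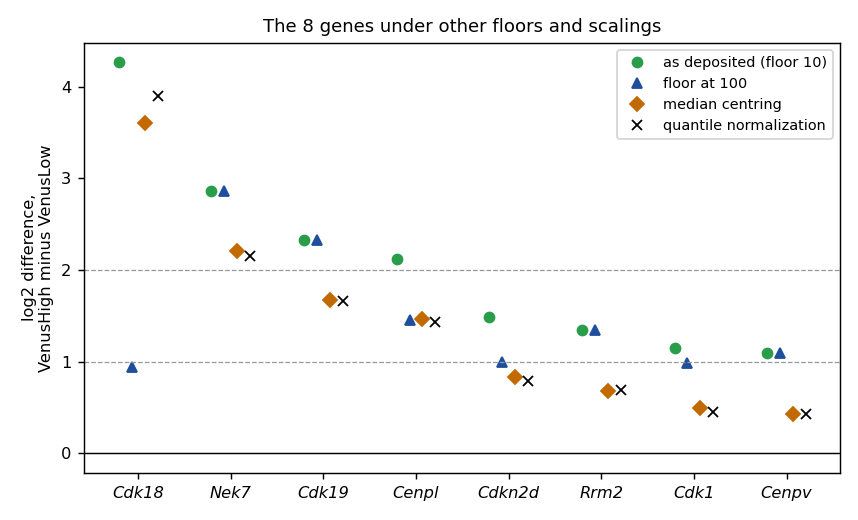
Log2 difference, VenusHigh minus VenusLow (vertical axis), of the 8 cell cycle genes at least 2-fold higher, as deposited (green circles), with the floor at a signal of 100 (blue triangles), after median centring (orange diamonds) and after quantile normalization (crosses). Dashed lines mark 2-fold and 4-fold. Nek7 stays above 4-fold in all 4 settings, and Cdk18 falls to 0.94 with the floor at 100.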

How the data were processed

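RNA of luminal VenusHigh and luminal VenusLow cells (250 ng, RNA integrity number above 9.4) was hybridized to an Affymetrix mouse GeneChip, 1 for each population. The deposited values are log2 signals, which the authors log2-transformed, then normalized and centred for each array in BRB Array software; the submitters' processing notes name MAS5. The sources used here do not give the normalization factor.

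Probe sets paired with a single symbol in the platform annotation (22223) were named, and symbols were updated through the RefSeq gene table of GRCm38.p6. For each gene the probe set with the greatest mean of both log2 values was used. A gene was counted as higher at a log2 difference of at least 1 or 2 and a signal of at least 100 on an array. As the table holds no lower values, the VenusHigh array alone decided whether this signal was reached. Members, lists and rules were chosen with earlier results of these data known. The rule for named genes took every gene counted as at least 2-fold higher, those beside the threshold, and Tbx3. It also took up to 3 genes per role group or further list with the highest VenusHigh signal. Not all genes under this last part are named, and other genes were named after their values were seen. Alternatives were median centring, quantile normalization, floors at 32 and 100, the median over probe sets of a gene, no _x_at, _s_at or _a_at probe sets, signal minimums of 50, 200 or none, and symbols not updated. Python 3.11.15, numpy 2.4.6, pandas 2.3.3 and matplotlib 3.10.9 were used, and the computation was tested on simulated data.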

Additional observations from a re-analysis of the deposited data

How the results depend on the processing

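The count of cell cycle genes at least 2-fold higher in VenusHigh cells was 8. It became 4 after median centring and 4 after quantile normalization, both without Cdk1, Cdkn2d, Cenpv and Rrm2. It became 5 with the floor at 100 (12.5%, beside 15.1% of all genes) and 5 with a signal minimum of 200 (20.0%, beside 21.9%). Both were without Cdk1, Cdk18 and Cdkn2d. With no signal minimum all 98 genes are counted, and it became 14 (14.3%, beside 9.93% of all genes). The median log2 difference was then 0.27, beside 0.02 for all genes. The count at least 4-fold higher was 4. It became 2 after median centring (5.0%, beside 5.74% of all genes) and 2 after quantile normalization (5.0%, beside 5.59%). Raising the floor to 100 also gave 2 (5.0%, beside 4.39%). The median log2 difference of 0.41 became -0.25 after median centring and -0.26 after quantile normalization, where the median of all genes was -0.20 and -0.22. Median centring lowers every difference by the same 0.66, which is more than 0.31, the SD between probe sets. It could therefore not turn a called difference negative. Quantile normalization also moved the log2 difference of each of the 40 genes by more than this SD, and turned none of the 8 called differences negative. Both rescalings took their reference from a table without lower values, so they may lower the differences too far. The other alternatives left both counts close to their values and the median within this SD. With that median in place of the brightest probe set, 27 genes passed the signal minimum, of which 9 (33.3%) were counted as 2-fold higher, beside 21.8% of all genes. No paired analysis was possible because each population has 1 array. Leaving out an array was not possible for the same reason.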
